A study of Homo sapiens with 6 samples.

Results

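The tight junction genes described here were 9 genes chosen by name from a table of 58735 genes, namely the claudins CLDN1, CLDN2, CLDN6, CLDN12 and CLDN14, occludin (OCLN), junctional adhesion molecule A (F11R) and the zonula occludens scaffolds TJP1 and TJP3. All 9 were present in the table, and 8 were expressed highly enough to be tested. The RNA came from Hep-G2, a human line established from a liver cancer, after lentiviral delivery of a short hairpin RNA and puromycin selection. The control group carried the hairpin sh-NC (n = 3 libraries) and the knockdown group carried the hairpin sh-CLGN against CLGN (n = 3 libraries). CLGN codes for calmegin, an endoplasmic reticulum protein that helps others fold. The labels call the cells of both groups hepatocytes, give no other treatment and give a single batch entry for all 6 libraries. Each group held 1 hairpin, so an effect of losing CLGN and an effect of the hairpin or of the culture that carried it cannot be told apart. The labels do not say whether the 3 libraries of a group came from separate cultures, so p-values measure the spread between these libraries, which may be technical.

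Tight junctions seal the gap between neighbouring epithelial cells, and in the liver they separate bile from blood. Claudins are small membrane proteins that set which ions pass, some by closing the junction and some by forming pores. Occludin and F11R lie in the same strands or beside them, and the zonula occludens (ZO) proteins bind their tails inside the cell and link them to actin.

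Expression was given as FPKM, which is fragments per kilobase of gene length and scaled to library size, so levels of different genes can be compared per length. The values gave back 14955816 to 16244639 reads per library. The library size behind the FPKM was not this read total. It was 0.933 to 0.953 times the reads in sh-NC and 1.07 to 1.08 times the reads in sh-CLGN. The targeted gene, CLGN, stood at 24.1, 21.0 and 26.1 FPKM in sh-NC and at 9.48, 8.88 and 8.60 FPKM in sh-CLGN. Fold changes are limma estimates on log2(FPKM + 1), sh-CLGN minus sh-NC, and p-values were adjusted by Benjamini-Hochberg over all 13074 tested genes, and called means an adjusted p no higher than 0.05. The change of CLGN was -1.31 (SE 0.0807, limma adjusted p = 8.35e-06).

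Claudins and scaffolds did not move as one group. Of the 8 tested members, CLDN6, CLDN12 and CLDN2 were called higher in sh-CLGN, and TJP1, CLDN1 and TJP3 were called lower. F11R and OCLN did not pass. This is 6 called of 8, where 65.8% of all tested genes were called, 26.7% higher and 39.0% lower. The balance of directions over all genes turned with the scaling, from 3496 higher and 5102 lower as deposited to 4956 higher and 3421 lower when scaled by read totals, and to 4285 higher and 3923 lower when scaled to TPM. In this fit CLDN6 alone also passed an absolute log2 fold change of 1, which with the adjusted p was passed by 6.28% of tested genes. TJP1 passed it too with a pseudocount of 0.1, at -1.01, and with voom on recovered reads, at -1.03. The libraries of the groups did not overlap for 6 of the 8, against 70.2% of tested genes. Counts of this size are near the background, so what follows describes single genes. The median log2 fold change was 0.05 over the tested members and -0.08 over all tested genes.

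**Figure D1:**
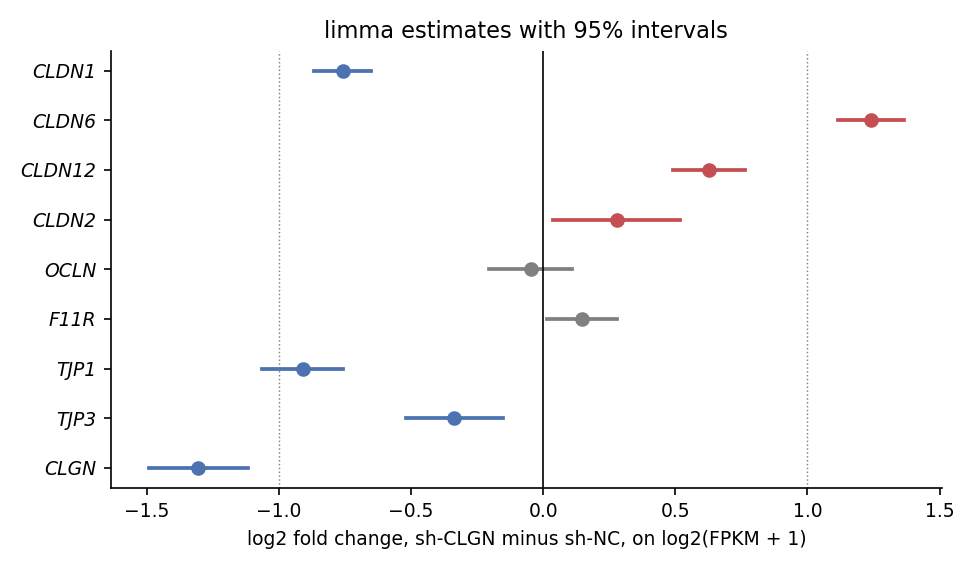
Log2 fold change (sh-CLGN minus sh-NC, horizontal axis, on log2(FPKM + 1)) of the 8 tested tight junction genes and of CLGN, with points for limma estimates and bars for 95% confidence intervals. Red marks genes called higher, blue genes called lower and grey genes not called, and dotted lines stand at -1 and 1. CLDN6 at 1.24 and TJP1 at -0.91 lie at the ends of the range of the members.

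CLDN1 (ENSG00000163347; chromosome 3, 190305701 to 190322475, minus strand, GRCh38) encodes a sealing claudin of the liver, and it had the highest level of any claudin in both groups. It stood at 189, 183 and 195 FPKM in sh-NC and at 109, 113 and 112 FPKM in sh-CLGN, from 6644 to 11076 reads per library. Every sh-CLGN library lay below every sh-NC library, and the groups were far apart relative to the spread within them. The means were 189 ± 6.32 and 111 ± 2.26 FPKM (SD, n = 3), so that 58.8% of the sh-NC level remained, a log2 fold change of -0.76 (SE 0.0462, limma adjusted p = 7.80e-06). The RNA came from whole cultures, in which fewer cells carrying a transcript and less of it per cell cannot be told apart.

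CLDN6 (ENSG00000184697; chromosome 16, 3014712 to 3020071, minus strand) encodes a claudin of embryonic epithelia that adult tissues hardly express. It stood at 27.5, 25.5 and 25.3 FPKM in sh-NC and at 62.3, 60.8 and 65.8 FPKM in sh-CLGN, from 647 to 1848 reads per library. The groups did not overlap, and the rise was the largest of the members. The mean rose 2.42-fold from 26.1 ± 1.20 to 63.0 ± 2.59 FPKM (SD, n = 3), a log2 fold change of 1.24 (SE 0.0538, limma adjusted p = 2.30e-06). On the opposite strand CLDN6 shares 40 of its 1739 exonic bases with TNFRSF12A, a receptor of the tumour necrosis factor family, whose mean went the other way, from 48.7 to 34.6 FPKM. The strandedness of counting is not given in the sources used here, so reads on those shared bases cannot be assigned to one gene.

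Because CLDN1 fell and CLDN6 rose, the make-up of the claudin transcripts changed. The FPKM of 24 claudin genes summed to 255, 244 and 253 in sh-NC, against 212, 215 and 220 in sh-CLGN. On the deposited scale the summed level was lower in every sh-CLGN library than in any sh-NC library. The sums depend on the library sizes behind the FPKM, which relative to reads were larger in sh-CLGN. They were not recomputed under other scalings, so a lower sum is not shown beyond the deposited scale. CLDN1 made up 74.3%, 74.9% and 77.3% of that sum in sh-NC, against 51.4%, 52.5% and 51.0% in sh-CLGN. CLDN6 made up 10.8%, 10.4% and 10.001% of it in sh-NC, against 29.5%, 28.2% and 29.9% in sh-CLGN. There were thus 7.27 ± 0.424 CLDN1 transcripts per CLDN6 transcript in the sh-NC libraries, against 1.77 ± 0.0791 in those of sh-CLGN (SD, n = 3, per length). This ratio is taken within a library and does not depend on a scaling factor per library. CLDN1 remained the leading claudin in all 6 libraries, with CLDN6 next. These sums and shares are descriptions, and no test was made on them.

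**Figure D2:**
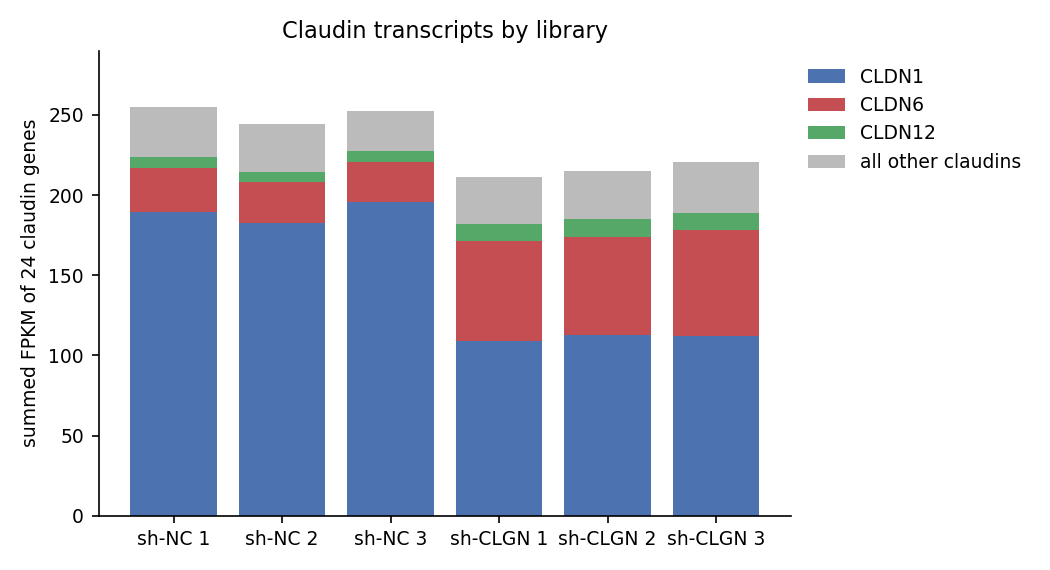
Summed FPKM of 24 claudin genes on the deposited scale (vertical axis, from 0) in each of the 6 libraries, stacked by CLDN1 (blue), CLDN6 (red), CLDN12 (green) and all other claudins (grey). The blue part falls from at least 74.3% of the sum in sh-NC to at most 52.5% in sh-CLGN, and the red part grows from at most 10.8% to at least 28.2%.

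The 250 bases before the transcription start of CLDN1 and CLDN6, the claudins of highest level, which changed in opposite directions, and of TJP1, the member with the largest fall, are given from RefSeq (GRCh38.p14), each on the strand of its gene. Capitals mark matches to a GC box (GGGCGG or its complement CCGCCC) and to an E-box (CAGGTG or CACCTG). No match overlapped another in these windows.
CLDN1 at chr3:190322447-190322696, minus strand: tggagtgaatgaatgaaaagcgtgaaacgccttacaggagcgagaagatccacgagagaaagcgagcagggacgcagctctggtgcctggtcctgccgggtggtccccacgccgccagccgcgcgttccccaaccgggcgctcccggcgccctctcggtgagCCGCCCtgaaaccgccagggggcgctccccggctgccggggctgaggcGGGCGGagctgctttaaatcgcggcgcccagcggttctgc
CLDN6 at chr16:3018184-3018433, minus strand: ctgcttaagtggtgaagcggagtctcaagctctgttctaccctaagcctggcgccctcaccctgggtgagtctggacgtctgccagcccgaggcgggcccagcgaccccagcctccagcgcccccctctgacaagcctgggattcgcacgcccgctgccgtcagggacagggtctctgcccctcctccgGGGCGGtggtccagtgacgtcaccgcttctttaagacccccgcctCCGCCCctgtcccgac
TJP1 at chr15:29969050-29969299, minus strand, 1 of 4 annotated starts: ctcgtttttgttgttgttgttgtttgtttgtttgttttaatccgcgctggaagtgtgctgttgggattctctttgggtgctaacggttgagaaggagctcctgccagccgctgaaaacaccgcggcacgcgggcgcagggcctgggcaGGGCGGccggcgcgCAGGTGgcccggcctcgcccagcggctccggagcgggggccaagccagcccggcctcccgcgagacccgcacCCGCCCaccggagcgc
The window of CLDN1 and that of CLDN6 each held 2 GC boxes and no E-box. Of the 4 windows of TJP1, only the window shown held an E-box. RefSeq gave 16 such windows for 8 members and no entry for F11R. A GC box was found in 8 of the 16 windows and in 42.6% of 35116 promoter windows of the same length, and an E-box in 5 of the 16 and in 17.5% of all. The pattern TGANTCA, with any base at N, was found in 1 window, of CLDN2, as TGATTCA, and in 6.57% of all. These matches describe letters and not binding.

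CLDN12 (ENSG00000157224; chromosome 7, 90383721 to 90513402, plus strand) encodes a claudin that lacks the usual tail motif for ZO proteins. It stood at 6.92, 6.28 and 6.97 FPKM in sh-NC and at 10.7, 11.3 and 10.9 FPKM in sh-CLGN, from 618 to 1245 reads. The groups did not overlap. The mean rose 1.62-fold, a log2 fold change of 0.63 (SE 0.0584, limma adjusted p = 5.28e-05). On the same strand CLDN12 shares 201 of its 6741 exonic bases with CDK14 and 347 with GTPBP10, whose means went from 3.05 to 5.83 FPKM and from 2.47 to 2.75 FPKM.

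CLDN2 (ENSG00000165376; chromosome X, 106900164 to 106930861, plus strand) encodes a pore-forming claudin that lets cations and water through. It stood at 2.48, 3.01 and 3.35 FPKM in sh-NC and at 3.32, 4.13 and 3.89 FPKM in sh-CLGN, from 118 to 231 reads. The lowest sh-CLGN library lay just under the highest sh-NC library, so the groups overlapped. CLDN2 shares 341 of its 3410 exonic bases with RIPPLY1 on the opposite strand, listed at means of 0.270 FPKM in sh-NC and 0.307 FPKM in sh-CLGN. The log2 fold change of CLDN2 was 0.28 (SE 0.104, limma adjusted p = 0.0446). The call was lost without sh-NC replicate 1, sh-NC replicate 2, sh-CLGN replicate 2 or sh-CLGN replicate 3, at adjusted p of 0.134, 0.0759, 0.143 and 0.111, and the direction was kept.

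CLDN14 (ENSG00000159261; chromosome 21, 36460621 to 36576569, minus strand) encodes a sealing claudin known from the inner ear and kidney. It had the lowest level of the members, at 1.16, 0.936 and 0.815 FPKM in sh-NC and at 0.558, 0.535 and 0.369 FPKM in sh-CLGN. These values rest on 36 to 46 reads in each library of sh-NC, against 17 to 27 in each of sh-CLGN. CLDN14 shares 132 of its 2853 exonic bases with AP000695.2 on the opposite strand, listed at means of 0.0764 FPKM in sh-NC and 0.189 FPKM in sh-CLGN. The groups of CLDN14 did not overlap, but only 1 library reached 1 FPKM and the gene did not enter the test. The difference of means was -0.40 on log2(FPKM + 1), and a two-sided exact permutation test gave p = 0.1, the smallest that 3 against 3 libraries allow. With no filter limma gave an adjusted p of 0.0417, and voom on the recovered reads of genes with at least 10 reads, a fit added after the data were seen, gave a log2 fold change of -0.98 with an adjusted p of 0.00386.

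OCLN (ENSG00000197822; chromosome 5, 69492292 to 69558104, plus strand), whose protein occludin was placed in junction strands before any claudin, stood at 2.77, 3.07 and 3.08 FPKM in sh-NC and at 2.91, 2.88 and 2.73 FPKM in sh-CLGN. The libraries of the groups overlapped. The mean was 2.97 ± 0.177 FPKM in sh-NC, against 2.84 ± 0.0969 FPKM in sh-CLGN (SD, n = 3), a log2 fold change of -0.05 with a 95% interval from -0.21 to 0.11 (limma adjusted p = 0.559). This interval does not reach the changes of CLDN1, CLDN6, CLDN12 or TJP1.

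F11R (ENSG00000158769; chromosome 1, 160995211 to 161021348, minus strand) encodes an immunoglobulin-type adhesion protein that takes part in building the junction. It stood at 11.7, 11.6 and 10.7 FPKM in sh-NC and at 12.8, 13.03 and 12.02 FPKM in sh-CLGN. The groups did not overlap, although the gap between them was narrow. The log2 fold change was 0.15 (SE 0.0573, limma adjusted p = 0.0517), just missing the threshold, with a 95% interval from 0.01 to 0.28. F11R shares 1853 of its 5066 exonic bases with AL591806.3, a gene model on the same strand listed at means of 0.0113 and 0.0376 FPKM, and how reads on those bases were assigned is not given in the sources used here.

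TJP1 (ENSG00000104067; chromosome 15, 29699367 to 29968865, minus strand) encodes ZO-1, the main scaffold of the tight junction. It stood at 10.7, 11.2 and 12.3 FPKM in sh-NC and at 5.36, 5.52 and 5.89 FPKM in sh-CLGN, from 1019 to 2137 reads. The groups did not overlap, and the highest sh-CLGN library was well under the lowest sh-NC library. The means were 11.4 ± 0.801 and 5.59 ± 0.272 FPKM (SD, n = 3), so that 49.1% of the sh-NC level remained, a log2 fold change of -0.91 (SE 0.0661, limma adjusted p = 1.66e-05).

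TJP3 (ENSG00000105289; chromosome 19, 3708109 to 3750813, plus strand) encodes ZO-3, a scaffold found mainly in epithelia. It stood at 5.03, 5.02 and 4.20 FPKM in sh-NC and at 3.61, 3.33 and 3.70 FPKM in sh-CLGN. The groups did not overlap. The log2 fold change was -0.34 (SE 0.0793, limma adjusted p = 0.00620). With a correction for GC content it was -0.090 (adjusted p = 0.133), and TJP3 has the highest GC content of the members, at 62.7% of its transcripts' bases.

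**Figure D3:**
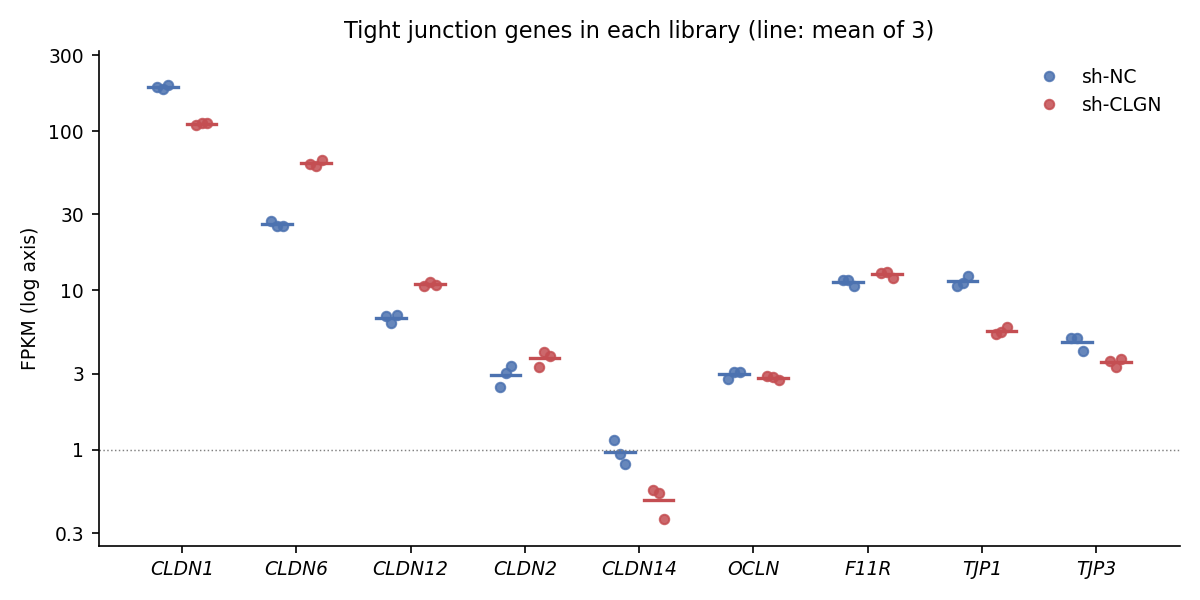
FPKM of the 9 tight junction genes (vertical axis, log scale) in each sh-NC library (blue) and each sh-CLGN library (red), with a line at the mean of 3 libraries and a dotted line at the filter of 1 FPKM. The groups overlap for CLDN2 and OCLN and are apart for the other members, with CLDN6 and CLDN12 higher and CLDN1, CLDN14, TJP1 and TJP3 lower in sh-CLGN, and F11R slightly higher.

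Ordered by mean level per length in sh-NC, the members ran CLDN1, CLDN6, TJP1, F11R, CLDN12, TJP3, OCLN, CLDN2 and CLDN14. The ranges of the neighbours TJP1 and F11R overlapped, and so did those of OCLN and CLDN2. In sh-CLGN the order was CLDN1, CLDN6, F11R, CLDN12, TJP1, CLDN2, TJP3, OCLN and CLDN14, where only the ranges of the neighbours CLDN2 and TJP3 overlapped. TJP1 thus moved from a level like that of F11R to under that of CLDN12.

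To see which members carry a possible match to the seed of the hairpin, their annotated 3′ UTRs in GENCODE 29 were searched for the heptamers that pair with bases 2 to 8 (TACCACA), 3 to 9 (ATACCAC) or 1 to 7 (ACCACAA) of its guide strand, read from the target given in the study's methods. Matches in the members are shown with 8 bases on each side, on the strand of the gene, with the heptamer in capitals.
CLDN1 at chr3:190305795-190305817, minus strand: tattcttcTACCACAcctggaaa
TJP1 at chr15:29700947-29700969, minus strand: caccatatTACCACAgacatact
TJP1 at chr15:29700620-29700642, minus strand: atgcgtgcATACCACttttgttc
CLDN2 at chrX:106929816-106929838, plus strand: ttgcctaaACCACAAggctaagg
OCLN at chr5:69554724-69554746, plus strand: agaatgctATACCACgaaatacc
CLDN1 and TJP1, which fell, held the heptamer for bases 2 to 8, as did 10.8% of 10880 tested genes with an annotated 3′ UTR. TJP3, which fell too, held none, and neither did CLDN6, CLDN12, CLDN14 or F11R. CLDN2 and OCLN, which held no heptamer for those bases, were not lower by the test. Of genes with the heptamer for bases 2 to 8, 43.8% were called lower, against 43.5% of genes without it. The shares were 49.7% and 43.0% for the heptamer of bases 3 to 9, and 43.6% and 43.5% for that of bases 1 to 7. Whether these matches bear on the levels of CLDN1 and TJP1 was not tested.

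Other claudins also moved both ways. Of 16 other claudins listed, 6 were tested, and 2 of these had entered the test through 1 group alone, so that they had to differ. CLDN19, a claudin of the kidney, was at 0.576 FPKM in sh-NC, under the filter in all 3 libraries, and at 1.67 FPKM in sh-CLGN. CLDN7 was at 1.56 FPKM in sh-NC and at 0.632 FPKM in sh-CLGN, under the filter in all 3 libraries there. Of the 4 others, 2 were called higher and 1 lower, with a median log2 fold change of 0.05. CLDN15, a pore-forming claudin of the gut, rose by 0.50 on the log2 scale (limma adjusted p = 0.00538), and CLDN16 rose by 0.22 (adjusted p = 0.0352). CLDN23 fell by 0.31 (adjusted p = 0.0334). CLDN3 did not pass, at -0.13 (adjusted p = 0.549). Besides CLDN14, 13 of the 24 claudin genes were under the filter. Of these 4 had no read in any library, and the 13 together held 74 to 107 reads in each library of sh-NC, against 127 to 148 in each of sh-CLGN. Summed over the libraries of a group, 6 of the 13 had more reads in sh-CLGN, 2 had fewer and 1 had as many. CLDN4, the one with the most reads, gave 184 reads over the sh-NC libraries and 197 over the sh-CLGN libraries. CLDN11 gave 21 and 63. Genes under the filter as a whole took 0.760% ± 0.0186 of the reads of sh-NC, against 1.18% ± 0.00343 of those of sh-CLGN (SD, n = 3). The rise in the summed reads of the low claudins thus went with a rise over all low genes.

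**Figure D4:**
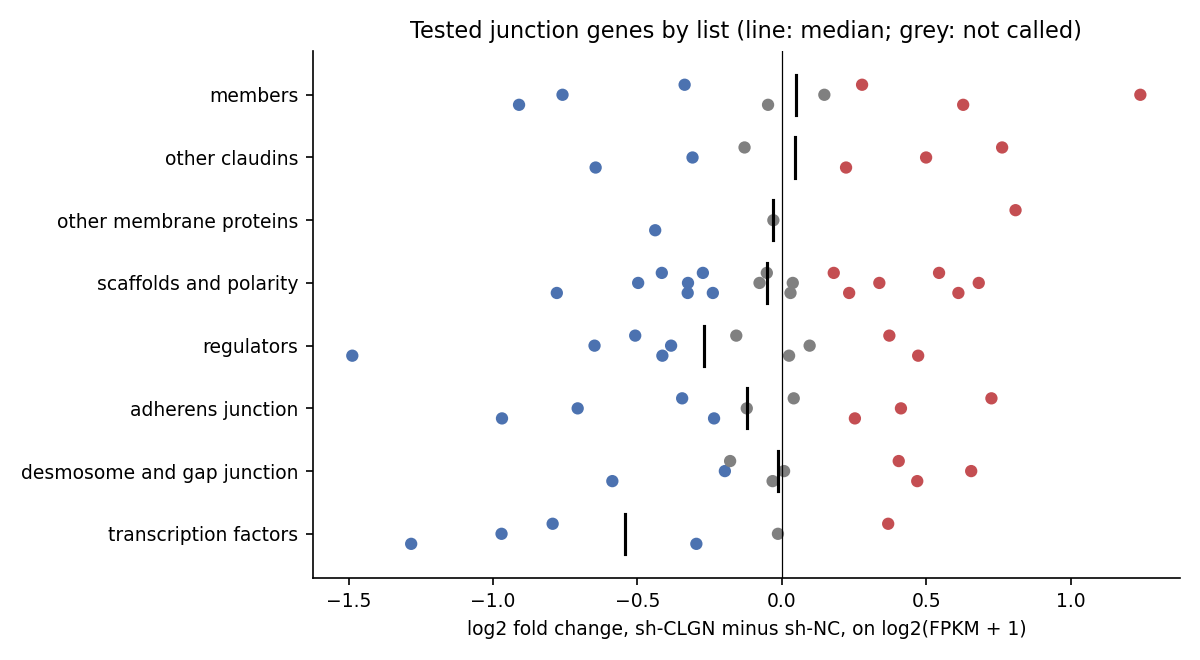
Log2 fold change (sh-CLGN minus sh-NC, horizontal axis, on log2(FPKM + 1)) of each tested gene of the members and of 7 related lists, with red for called higher, blue for called lower, grey for not called and a black line at the median of the list, genes that entered the test through 1 group alone included. The lists spread to both sides of 0, and the medians run from -0.54 for the transcription factors to 0.05 for the members and for the other claudins.

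The other membrane proteins of the junction gave 3 tested genes of 9. CXADR, the coxsackievirus and adenovirus receptor, rose by 0.81 on the log2 scale (SE 0.0940, limma adjusted p = 0.000164). LSR, which builds the corners where cells meet, fell by 0.44 (adjusted p = 0.00580). MARVELD2 (tricellulin), a relative of occludin, was at -0.03 (adjusted p = 0.715), so both tested proteins of that family missed the threshold.

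Among other scaffolds and polarity proteins, 6 of 17 tested were called higher and 7 lower, with a median of -0.05, and 1 of the 7 had entered the test through sh-NC alone. The 4 with the smallest adjusted p were AMOTL2, MPP5, AFDN and MPDZ. AMOTL2, an angiomotin of the junction, went from 27.2 to 15.4 FPKM with a log2 fold change of -0.78 (SE 0.0673, limma adjusted p = 3.75e-05). MPP5 (PALS1), a polarity scaffold, went from 3.69 to 6.52 FPKM with 0.68 (adjusted p = 7.76e-05). AFDN (afadin), which binds nectins and ZO-1, rose by 0.54 on the log2 scale (adjusted p = 0.000172), and MPDZ, a scaffold with many PDZ domains, by 0.61 (adjusted p = 0.000213). Cingulin (CGN), a partner of ZO-1, fell by 0.33 (adjusted p = 0.00446), and its relative CGNL1 fell by 0.27 (adjusted p = 0.00302). CGN and CGNL1 were named after their values were seen.

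Of the regulators of the junction, 2 of 10 tested were called higher and 5 lower, with a median of -0.27. YBX3, the Y-box factor that ZO-1 holds at the junction, stood at 12.4, 13.98 and 11.99 FPKM in sh-NC and at 3.86, 4.12 and 3.73 FPKM in sh-CLGN. The groups were far apart, with a log2 fold change of -1.49 (SE 0.0707, limma adjusted p = 2.99e-06), a larger fall than that of any member. ARHGEF2, an exchange factor for RHOA that cingulin binds, fell by 0.65 (adjusted p = 2.74e-05), and RHOA itself fell by 0.51 (adjusted p = 3.71e-05). EPCAM, an adhesion protein that steadies claudins, fell by 0.38 (adjusted p = 0.000520), whereas ROCK2 and ROCK1, kinases that act after RHOA, rose by 0.47 and 0.37 (adjusted p = 0.00107 and 0.00228). CDC42 was listed at 0.199 to 0.426 FPKM and was not tested, although most cells use this gene, and its values are uncertain.

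The neighbouring junctions changed in both directions as well. In the adherens junction 3 of 9 tested genes were called higher and 4 lower. CDH1 (E-cadherin) rose by 0.73 (limma adjusted p = 8.22e-06) and CDH2 (N-cadherin) by 0.41 (adjusted p = 0.000323), while NECTIN1 fell by 0.97 (adjusted p = 3.68e-05) and NECTIN2 by 0.71 (adjusted p = 7.21e-05). Among desmosome and gap junction genes 3 of 8 were called higher and 2 lower, with JUP (plakoglobin) at 0.66 (adjusted p = 7.09e-05), PKP3 at -0.59 (adjusted p = 0.000487), DSC2 at 0.40 (adjusted p = 0.000858) and GJB1 at 0.47 (adjusted p = 0.00192).

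Of 10 transcription factors listed for a reported action on junction genes, 6 were tested, of which 1 was called higher and 4 lower, with a median of -0.54. KLF5, an epithelial factor that binds GC-rich sites, went from 28.7 ± 1.51 to 11.2 ± 0.355 FPKM (SD, n = 3) with a log2 fold change of -1.28 (SE 0.0556, limma adjusted p = 2.30e-06). The liver factors CEBPA and HNF4A fell by 0.79 and 0.30 on the log2 scale (adjusted p = 4.00e-05 and 0.00185). SNAI1, a repressor that binds E-boxes, rose by 0.37 (adjusted p = 0.0203). TWIST1 had no read in any library, and SNAI2, ZEB2 and GRHL2 were under the filter. A part of these factors in the levels of the claudins was not tested.

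The genes whose profile over the 6 libraries lay nearest to that of CLDN6, by Euclidean distance of log2(FPKM + 1) centred on the sh-NC mean, were MRFAP1L1, SLC6A13 and LINC01419, at distances of 0.0817, 0.112 and 0.121. Those nearest to TJP1 were TMEM70, FNDC3B and UBP1, at 0.0726, 0.0932 and 0.0987. None of these 6 genes is on the junction lists. Closeness here says that a gene changed by a like amount in the same libraries.

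The labelled cell type was checked on its markers. All 8 hepatocyte genes listed were expressed, at a sum of 7004 to 7245 FPKM in sh-NC and 7116 to 7586 FPKM in sh-CLGN, with 3 called higher and 4 lower. Of 5 bile duct genes, whose epithelium has tight junctions of its own, 3 were tested, 2 called higher and 1 lower, and their sum was 128 to 136 FPKM in sh-NC and 95.6 to 102 FPKM in sh-CLGN, with KRT7 at no more than 3 reads in every library. Of 8 fibroblast genes, 5 were tested, of which COL1A1, COL3A1 and LUM entered the test through sh-CLGN alone and had to differ, and the other two, COL1A2 and PDGFRB, were called higher. The sum of the 8 was 7.17 to 8.51 FPKM in sh-NC and 48.5 to 49.9 FPKM in sh-CLGN. COL1A2 held most of that rise, and the fibroblast genes DCN and THY1 had no more than 3 reads in every library. Of 4 endothelial genes 1 was tested and called lower, and none of 5 blood genes was tested, with sums of at most 3.67 and 0.133 FPKM. The part of these genes' changes in the levels of the tight junction genes was not tested.

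The calls of CLDN1, CLDN6, CLDN12 and TJP1 held under all 15 alternatives and without any 1 library. CLDN1 ranged from -0.87 with a GC correction to -0.45 with quantile normalization, TJP1 from -1.03 with voom to -0.74 with scaling by read totals, CLDN12 from 0.51 with a GC correction to 0.80 with scaling by read totals, and CLDN6 from 1.24 to 1.52. The smaller changes depended on the scaling. Scaling by TPM and by read totals moved the median of all genes by 0.11 and 0.16 on the log2 scale, and under these OCLN was positive, at 0.057 and 0.097, and F11R was called, at 0.28 and 0.33 (adjusted p = 0.00512 and 0.00138). With a GC correction OCLN, which has the lowest GC content of the members at 40.0%, was called lower at -0.22 (adjusted p = 0.0145), and TJP3 lost its call.

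**Figure D5:**
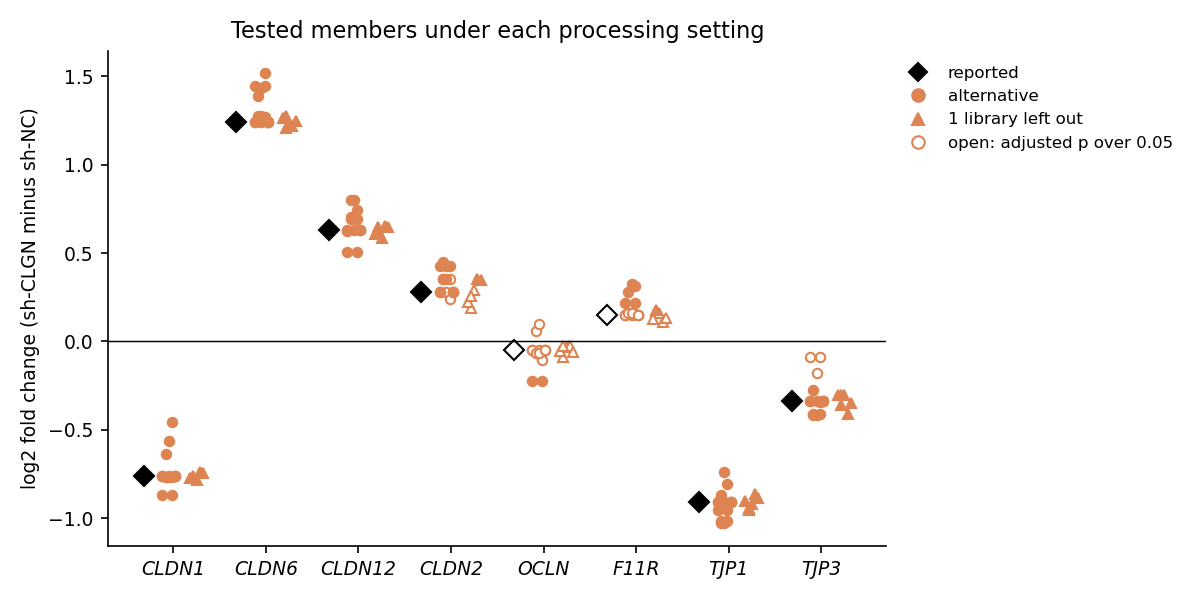
Log2 fold change (sh-CLGN minus sh-NC, vertical axis) of the 8 tested members as reported (black diamonds), under each of 15 alternatives (circles) and with 1 library left out (triangles), where open symbols have an adjusted p above 0.05. The symbols of CLDN1, CLDN6, CLDN12 and TJP1 are filled throughout, whereas CLDN2, OCLN, F11R and TJP3 each hold filled and open symbols and OCLN lies on both sides of 0.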

How the data were processed

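The 6 libraries of Hep-G2 RNA (sh-NC and sh-CLGN, 3 each) were prepared with a NEBNext Ultra kit per the labels. The authors deposited FPKM values per gene. The submitters' processing notes name HISAT2 2.0.5, featureCounts and the build GRCh38, and strandedness is not given in the sources used here. Gene positions equalled GENCODE 29 for all 58735 genes. FPKM times gene length gave whole reads for 100% of values, within 0.01 of a read, and 1 read on 1 kb was worth 0.0589 to 0.0717 FPKM. Levels near 3 reads were taken as the floor. Without molecular identifiers this covers counting error only.

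The deposited FPKM were tested as log2(FPKM + 1) with limma 3.58.1 (eBayes with trend, R 4.3.3) on genes of at least 1 FPKM in at least 3 libraries, which understates changes of low genes. The code of the fit was also run on simulated reads, with large changes in a small share of well-covered genes. That run does not bear on small changes, nor on library sizes that differ from the read totals. Table columns named KD were matched to sh-CLGN. Alternatives were a pseudocount of 0.1, no filter, protein-coding genes, other scalings (median-ratio, TPM, read totals, quantile), no trend, robust eBayes, voom on recovered reads, GC correction (lowess span 0.3), the replicate number as a block, and each library left out. The voom fit on genes with at least 10 reads was added after seeing the data.

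The members and lists were chosen with earlier results of these data known. Named genes were the members, CLGN, up to 4 called genes of each list by smallest adjusted p, and the 3 nearest profiles of the members with the largest rise and fall. Others are named where a count needed them. A few items under these rules are left unreported here. Replicate numbers were not used to pair the libraries in the main fit. Promoters were searched on both strands, and 3′ UTRs of at least 50 bases on the strand of the gene. Tables were made in Python 3.11.15 with pandas 2.3.3 and scipy 1.17.1, and figures with matplotlib 3.10.9.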

Additional observations from a re-analysis of the deposited data

How the results depend on the processing

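The count of genes at adjusted p alone (8598) and the count of members called (6) stayed within 1.5 times, at 7914 to 11347 and at 6 to 7 under the 15 alternatives, and at 7634 to 8760 and at 5 to 6 with 1 library left out. With the fold threshold the 821 genes became 1606 with a pseudocount of 0.1, 2914 with no filter and that pseudocount, 1426 with TPM, 1722 with voom and 3845 once voom took all genes of 10 or more reads. CLGN, CLDN1, CLDN6, CLDN12 and TJP1 kept direction and call throughout.

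CLDN2 was not called with no filter (0.28, adjusted p = 0.122), without it at a pseudocount of 0.1 (0.35, adjusted p = 0.111) and with quantile normalization (0.24, adjusted p = 0.0642). With 1 library left out it ranged from 0.19 to 0.35. CLDN14 was at -0.87 without a filter at a pseudocount of 0.1, and at -0.98 in the latter voom fit. OCLN turned to 0.057 with TPM and 0.097 with read totals, and was called at -0.22 with the GC correction, with and without the block. TJP3 lost its call at -0.18 with read totals and -0.090 with the GC correction, with and without the block. F11R was called at 0.28 with TPM, 0.33 with read totals, 0.32 with quantile normalization and 0.22 with the GC correction, with and without the block, and ranged from 0.11 to 0.18 with 1 library left out, called without sh-CLGN replicate 3 (adjusted p = 0.0470).

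After each gene's group mean was subtracted, same-numbered libraries correlated at -0.02, -0.05 and -0.15, and other pairs at -0.08 to 0.11. Centring 3 libraries per group makes these values balance around 0. They gave no sign that the numbers pair the libraries, but cannot settle it. With the replicate block 6 members and 8038 genes were called. Depth limits CLDN14, at 17 to 46 reads per library, and the 13 claudins under the filter.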
